A study of Mus musculus with 6 samples.

Results

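The genes described here are the protein-coding mouse genes named Zfp followed by a number. A transcript model was taken as a gene's own when at least 50% of its exon bases lay in the mm10 span of that gene, and the most abundant model by summed reads stood for the gene. Of 397 such genes in the annotation, 88 had a model, out of 3880 protein-coding genes with a model and 7959 models in all. The RNA came from MEL cells (a murine erythroleukemia line, strain C57BL/6 in the labels) whose chromatin had been crosslinked with formaldehyde. The 6 libraries formed 3 groups of 2: input, a capture with masked TH59-DB (the control, called the masked probe below), and a capture with the unmasked TH59-DB, which is a polyamide of pyrrole and imidazole units directed at telomeres. All groups share the cell line and the crosslinking. Whether replicate libraries derive from separate cultures is not stated, so p-values measure only the spread between these libraries, which may be technical. The labels number the second library of each group only, and the other is called library 1 here.

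Most Zfp genes encode proteins with C2H2 zinc fingers, small folds held by a zinc ion that read DNA sequence in tandem arrays. Many of these proteins also carry a KRAB domain, which recruits the corepressor Trim28 and, through it, the methyltransferase Setdb1, and so silences transposable elements and imprinted regions. Genes of the KRAB class often sit in tandem clusters of close relatives, where reads of near-identical copies can be split between genes. The name alone does not define a family: Zfp36l2 encodes a CCCH finger protein of mRNA decay, and Zfp91 and Zfp598 encode ubiquitin ligases.

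The Zfp models were short and shallow. The median model was 281 bases long (range 94 to 1425), and 76 of 88 had 1 exon. In 31 genes 2 or more models lay in the span, up to 11 in one gene. For 77 of the 88 the strand of the model was not set in the files of library 2, and in 10 of the 10 where both strands were known model and gene lay on the same strand. In 5 the model also lay in the span of another gene. The annotation used holds spans and no exons, so a model may be exonic or intronic. Library totals ran from 1803723 to 3122558 reads, so a single read was 0.320 to 0.554 CPM (reads per 1000000 of the total). All CPM given here are scaled by these totals alone, and the main edgeR fit also used composition factors (TMM). For libraries 1 and 2 they were 0.772 and 1.20 (input), 0.892 and 1.34 (masked probe), and 1.33 and 0.681 (TH59-DB). The 88 genes held 1388 to 3702 reads per library. Zero reads were counted for 12 and 10 genes in the input libraries, 47 and 13 in the masked libraries and 0 and 9 in the TH59-DB libraries. In TH59-DB 1 every Zfp gene had at least 10 reads, and no model of the series had fewer than 5. This floor in 1 library bears on every comparison with it. In masked TH59-DB 1, 4341 of all models had 0 reads. Of the erythroid marker list 14 of 23 genes had a model, with 283 to 846 CPM summed per library. Of other blood cell markers 2 of 15 had one, and of markers of other tissues 0 of 11. The globin genes of the erythroid list had no model.

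Zfp36l2, an mRNA decay factor, was the most abundant member by summed CPM. It had 135 and 170 CPM in the input, 125 and 225 with the masked probe, and 146 and 77.6 with TH59-DB. The ranges of the 3 groups overlapped, and the log2 fold change of TH59-DB over input was -0.50 (SE 0.63, edgeR adjusted p = 0.881). Per kilobase of model, Zfp532 had the second highest input level, with a mean of 364 CPM per kb. Zfp106, an RNA-binding zinc finger protein gene, followed with 163 and Zfp36l2 with 107. Zfp532 itself had 27.8 and 79.9 CPM in the input, 2.54 and 82.9 with the masked probe and 6.65 and 43.6 with TH59-DB. Library 1 was the lower one of each group, and per kilobase the input ranges of Zfp532 and Zfp106 overlapped while that of Zfp36l2 lay below both. The first in the order per kilobase, Zfp791 at 1313 CPM per kb, owed its place to 1 library. It had 232 CPM in input 1 and 14.4 in input 2.

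Zfp148 and Zfp281 encode transcription factors that bind GC-rich sites. Zfp148 had 13.1 and 17.5 CPM in the input, 3.55 and 19.5 with the masked probe, and 12.2 and 12 with TH59-DB. Zfp281 had 4.35 and 8.76 CPM in the input, 0 and 5.76 with the masked probe, and 8.87 and 6.57 with TH59-DB. For Zfp148 the captures overlapped and both TH59-DB values lay below the input in CPM. With TMM factors its log2 fold change of TH59-DB over input was -0.24 (edgeR adjusted p = 0.970). For Zfp281 both TH59-DB values lay above the masked ones and within or near the input range. Zfp638, a nuclear protein gene known for silencing unintegrated retroviral DNA, had 8.04 and 18.2 CPM in the input, 26.9 and 20.8 with the masked probe, and 12.2 and 13.9 with TH59-DB. Both masked values lay above the other 4. Zfp445, a KRAB gene of imprint maintenance, had 3.68 and 11.6 CPM in the input, 3.55 and 18.3 with the masked probe, and 8.87 and 13.9 with TH59-DB, so its groups overlapped. Zfp91 had 4.02 and 0.350 CPM in the input, 0 and 1.28 with the masked probe, and 6.10 and 1.54 with TH59-DB. Zfp652 had 25.1 and 53.2 CPM in the input, 2.54 and 51.9 with the masked probe, and 43.2 and 44.8 with TH59-DB, with masked TH59-DB 1 far below the other 5 libraries.

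**Figure D1:**
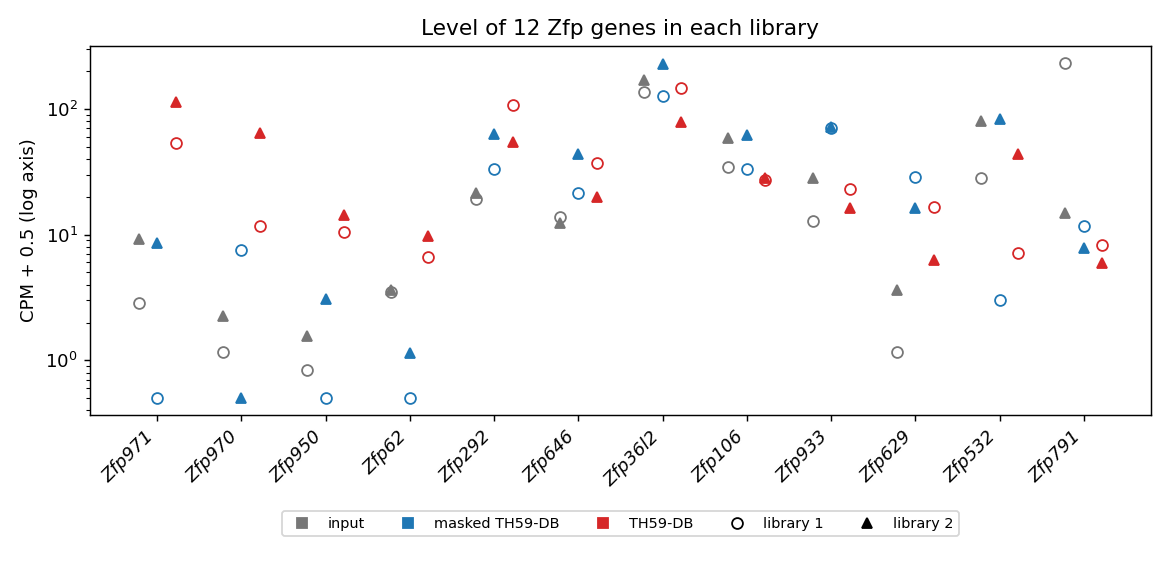
CPM plus 0.5 on a log axis for 12 Zfp genes, with input in grey, masked TH59-DB in blue and TH59-DB in red; open circles are library 1 and triangles library 2 of each group. Zfp971 sits at 53.2 and 112 CPM in TH59-DB and at or below 8.76 in the other 4 libraries, while Zfp791 is high in input 1 alone.

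Summed over all 88 genes, the Zfp level was 754 and 829 CPM in the input, 704 and 1186 with the masked probe, and 1321 and 818 with TH59-DB. The means were 791 ± 53.3, 945 ± 340 and 1070 ± 355 CPM (SD, n = 2 each). The groups overlapped. Levels in the captures also depend on how much of each RNA the probe recovered. In such bulk libraries fewer cells with a transcript and less RNA per cell cannot be told apart either. The exact permutation test over libraries (2-sided) gave p = 0.667 for TH59-DB against masked TH59-DB, 0.667 for TH59-DB against input and 1.0 for masked TH59-DB against input, where 2 against 2 libraries cannot go below 0.333. Without masked TH59-DB 1 or without TH59-DB 1 the difference between the captures changed sign.

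The first comparison sets the TH59-DB capture against that of its control, asking which Zfp transcripts are recovered above the masked probe. No Zfp gene passed. Of the 88, 67 passed the filter on low counts and were tested, and 0 were higher and 0 lower at an edgeR adjusted p under 0.05, where 1.41% and 0.0% of all 5385 models tested were called. At an unadjusted p under 0.05, 4 were higher (Zfp971, Zfp62, Zfp970 and Zfp950) and 1 lower (Zfp933), against 8.26% and 1.69% of all models. DESeq2 called 1 higher (Zfp971) and 0 lower, against 4.92% and 0.0186% of all models. The counts of 4 and 1 of 67 were thus not above the shares in all models. Without masked TH59-DB 2, when 83 Zfp genes were tested, 22 were higher and 5 lower, where 20.6% and 3.35% of all models tested were called. Without masked TH59-DB 1, 3 of 84 were higher (Zfp62, Zfp719 and Zfp970) and 0 lower, where 4.26% and 0.0412% of all models were called. The median log2 fold change was 0.62 over the 67 and 0.30 over all models tested, and 46 values were positive and 21 negative. This gap between the medians depended on the setting. It remained with DESeq2 (0.82 and 0.52) and without TH59-DB 1 (0.49 and 0.26). Without the filter the medians were 0.77 over the 88 and 0.94 over all models. They were 0.84 and 0.86 without TH59-DB 2, and 0.40 and 0.38 without masked TH59-DB 1. A gene near 0 in the other groups passed the filter only through the libraries where it was high.

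Zfp971 came nearest to the threshold. Its model of 4 exons on chromosome 2 (178023289 to 178033497, 978 bases) had 53.2 and 112 CPM with TH59-DB, 0 and 8.01 with the masked probe, and 2.34 and 8.76 in the input. Both TH59-DB libraries lay above the other 4. The ratio of means to masked TH59-DB was 20.6 (pooled ratio 17.9, 95% exact counting interval 11.9 to 27.9), and the log2 fold change was 4.92 (SE 1.23, adjusted p = 0.0857). The interval covers counting error only, since it pools the reads of the 2 libraries of each group and leaves out the spread between them. The reads also carry no molecular identifiers here. It passed in 10 of 13 alternative settings, among them DESeq2 (adjusted p = 1.78e-04) and RLE factors (0.0198), and the adjusted p over all of them ran from 2.13e-06 to 0.248. Leaving out masked TH59-DB 2 gave a log2 fold change of 11.04, and the lowest value with 1 library left out was 3.38.

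Zfp970, a neighbour of Zfp971 on chromosome 2, had 11.1 and 63.3 CPM with TH59-DB, 7.10 and 0 with the masked probe, and 0.670 and 1.75 in the input at its model from 177477882 to 177478077. Again both TH59-DB values were the highest, by a small margin over masked TH59-DB 1 in library 1. The log2 fold change over masked TH59-DB was 3.80 (SE 1.53, adjusted p = 0.381). It was 10.36 without masked TH59-DB 1 (adjusted p = 1.54e-05) and 1.05 without TH59-DB 2, and over all alternatives the adjusted p ran up to 0.928. Zfp950, on chromosome 19 (61115931 to 61116170), had 9.98 and 13.9 CPM with TH59-DB, 0 and 2.56 with the masked probe, and 0.335 and 1.05 in the input. These values rest on 18 and 36 TH59-DB reads, and the log2 fold change was 3.62 (SE 1.56, adjusted p = 0.449). Without masked TH59-DB 2 it was 8.10 and passed (adjusted p = 0.00423), and over all alternatives the adjusted p ran up to 0.946.

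Zfp950 had 1 model only. In the other models of Zfp971 and Zfp970 TH59-DB again had the highest mean, but the order of the other groups varied. The masked probe was above the input in 3 of 4 models of Zfp971 and 1 of 4 of Zfp970. Zfp971 and Zfp970 had 4 models each, and in 4 of 4 the mean CPM was higher in TH59-DB than with the masked probe and than in the input. The same held for 5 of 5 models of Zfp507, and 3 of 3 of Zfp800 and of Zfp831. It also held for 2 of 2 models of Zfp281, Zfp335, Zfp384, Zfp516, Zfp668 and Zfp865. Such counts do not single out Zfp971 and Zfp970. The means include TH59-DB 1, the library in which no model had fewer than 5 reads. For Zfp106 the counts were 2 of 9 over the masked probe and 0 of 9 over input. Summed over its models, Zfp971 had 98.7 and 255 CPM with TH59-DB, 7.61 and 33.3 with the masked probe, and 7.37 and 17.5 in the input. Zfp970 had 29.4 and 97.7 CPM with TH59-DB, 7.10 and 0 with the masked probe, and 1.00 and 4.2 in the input. Models of 1 gene share their source and are not independent, and how the counting divided reads between close copies such as these genes is not given in the sources used here.

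The promoter windows of these 3 genes are shown because they are the members with both TH59-DB libraries above the other 4 and an unadjusted p under 0.05 in both comparisons of TH59-DB, and because the probe is directed at telomeres, whose repeat is TTAGGG. The sequences are RefSeq's, build GRCm38.p6, from 250 bases before to 50 after the gene start, 5′ to 3′ on the gene's strand, at chr2:178023034-178023333 (plus strand), chr2:177464492-177464791 (plus strand) and chr19:61140791-61141090 (minus strand). Capitals mark CCCTAA, the motif TTAGGG read on the other strand.
Zfp971: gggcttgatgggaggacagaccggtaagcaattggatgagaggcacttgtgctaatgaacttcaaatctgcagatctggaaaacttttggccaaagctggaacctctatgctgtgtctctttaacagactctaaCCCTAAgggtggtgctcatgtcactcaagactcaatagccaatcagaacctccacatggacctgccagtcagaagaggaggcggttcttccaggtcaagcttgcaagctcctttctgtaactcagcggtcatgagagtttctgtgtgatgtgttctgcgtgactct
Zfp970: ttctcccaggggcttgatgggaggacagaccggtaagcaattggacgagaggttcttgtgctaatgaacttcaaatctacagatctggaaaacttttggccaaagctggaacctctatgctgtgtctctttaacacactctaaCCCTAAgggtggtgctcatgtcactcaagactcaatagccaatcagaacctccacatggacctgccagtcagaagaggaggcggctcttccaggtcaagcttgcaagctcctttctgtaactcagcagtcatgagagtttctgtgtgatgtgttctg
Zfp950: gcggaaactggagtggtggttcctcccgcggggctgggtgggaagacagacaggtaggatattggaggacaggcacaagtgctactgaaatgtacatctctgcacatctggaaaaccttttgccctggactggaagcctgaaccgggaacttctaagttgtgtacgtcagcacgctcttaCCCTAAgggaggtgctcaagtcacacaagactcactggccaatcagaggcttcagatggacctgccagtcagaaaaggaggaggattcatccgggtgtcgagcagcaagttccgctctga

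The windows of Zfp971 and Zfp970 were 97.6% identical over 291 aligned bases, and that of Zfp950 was 79.6% identical to Zfp971 over 250. Each holds 1 match to TTAGGG on either strand. A promoter window was at hand for 76 of the 88 genes, and 14 of them (18.4%) hold TTAGGG on either strand in at least 1 window, against 12% of all 27025 genes with a window. TTAGGG continued by the first 4 letters of a further repeat is a run chosen after the sequences were seen, and it contains TTAGGG. On either strand it is in windows of 3 of the 76 genes (3.95%), Zfp971, Zfp970 and Zfp808, against 0.2% of all 27025 genes. The near-identical windows of Zfp971 and Zfp970 may not be separate occurrences. Also counted were CTTAGGG (6.58% of the 76, 4.04% of all genes) and CCCTTAGGG (5.26% and 0.474%), both found in Zfp950 too. Zfp808 had 12.8 and 4.63 CPM with TH59-DB, 9.13 and 17.3 with the masked probe, and 6.70 and 10.9 in the input, so its groups overlapped. A match of these letters is a description of the window, and binding there was not measured in these libraries.

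Zfp62 had 6.10 and 9.27 CPM with TH59-DB, 0 and 0.641 with the masked probe, and 3.01 and 3.15 in the input. The masked libraries were the lowest, on 0 and 2 reads. The log2 fold change over masked TH59-DB was 4.72 (SE 1.72, adjusted p = 0.306), with a pooled ratio of 20.3 and a counting interval of 5.21 to 174. It passed without masked TH59-DB 1 (adjusted p = 0.0217) and without masked TH59-DB 2 (0.00965), and over all alternatives the adjusted p ran up to 0.759. Zfp933 went the other way. It had 69.5 and 71.7 CPM with the masked probe, 22.7 and 15.8 with TH59-DB, and 12.4 and 27.7 in the input, so the masked libraries lay above all others and the other groups overlapped. Its log2 fold change was -1.70 (SE 0.63, adjusted p = 0.314). Zfp740 (-1.18, adjusted p = 0.829), Zfp598, a ubiquitin ligase gene of ribosome quality control (-1.26, 0.874), and Zfp629 (-1.06, 0.885) had the next smallest p in that direction. Zfp740 had 48.2 and 14.7 CPM with the masked probe, 26.1 and 5.79 with TH59-DB, and 11.4 and 10.2 in the input, and its log2 fold change was 0.18 without masked TH59-DB 1. Zfp598 had 16.2 and 10.2 CPM with the masked probe, 6.65 and 3.86 with TH59-DB, and 5.02 and 7.71 in the input, with the masked libraries highest.

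**Figure D2:**
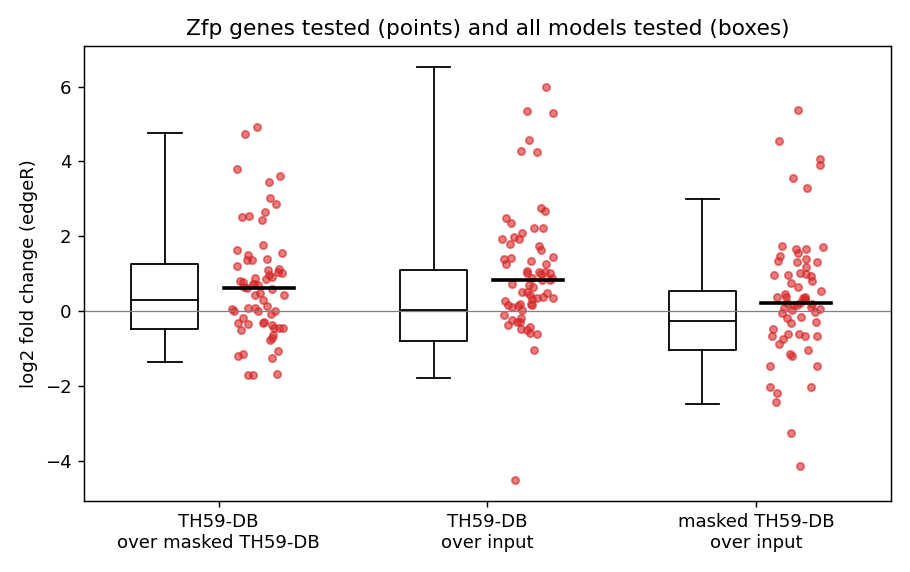
Log2 fold changes of the 67 tested Zfp genes (red points, bar at their median) beside all 5385 models tested (boxes from the lower to the upper quartile, line at the median, whiskers from percentile 5 to 95) in the 3 comparisons. The Zfp medians are 0.62, 0.85 and 0.23 from left to right, against 0.30, 0.03 and -0.26 for all models, and no Zfp gene passed.

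The same-numbered libraries differed from each other in CPM, which carry no TMM factors. For libraries 1 and 2 those factors were 1.33 and 0.681 for TH59-DB and 0.892 and 1.34 for the masked probe. How far this scaling bears on the counts below was not tested. In library 1, 72 of 88 Zfp genes had a higher CPM in TH59-DB than with the masked probe, close to the 84.8% of all models. In library 2, 26 of 88 did, against 25% of all models. In both, 23 genes (26.1%) were higher and 13 lower, and 23.8% of all models were higher. CPM ranges of the groups did not overlap for 21 of 88 genes higher in TH59-DB, where 21.8% of all 7959 models were, and for 7 lower, where 9.94% were. The counts of Zfp genes were thus near those of all models.

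**Figure D3:**
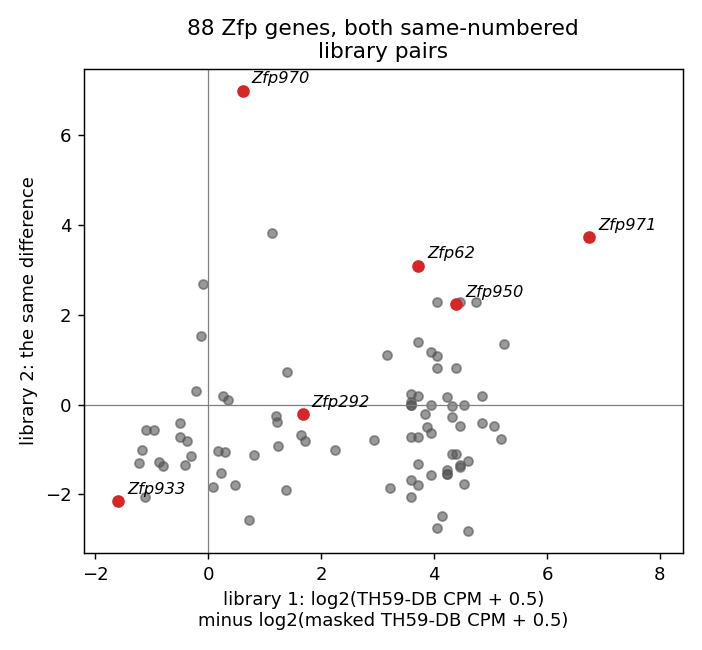
Difference of log2(CPM + 0.5) between TH59-DB and masked TH59-DB for the 88 Zfp genes, in library 1 on the x axis and library 2 on the y axis; points at the upper right are higher in TH59-DB in both. Of the genes 72 lie right of 0 and 26 above 0, with Zfp971, Zfp62 and Zfp950 among the 23 that do both.

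TH59-DB against input asks which Zfp transcripts were enriched by the capture over the starting chromatin. Again 0 of 67 genes were higher and 0 lower (edgeR adjusted p under 0.05), where 3.58% and 0.0371% of all models were called. At an unadjusted p under 0.05, 6 were higher (Zfp971, Zfp970, Zfp292, Zfp950, Zfp213 and Zfp629) and 1 lower (Zfp791), against 8.86% and 5.14% of all models. Zfp213, whose model also lies in the span of 6330415G19Rik, had 9.42 and 6.57 CPM with TH59-DB, 0 and 8.01 with the masked probe, and 0 and 0.350 in the input. DESeq2 called 4 higher (Zfp971, Zfp970, Zfp292 and Zfp950) and 1 lower (Zfp791), against 6.78% and 0.52% of all models. The median log2 fold change of the 67 was 0.85 and that of all models tested 0.03. Positive values were found in 54 of the 67 genes (80.6%) and in 50.9% of all models. Leaving out TH59-DB 1 gave medians of 0.88 and -0.0015, and leaving out TH59-DB 2 gave 1.02 and 0.48. Without masked TH59-DB 1, 8 Zfp genes of 84 tested were higher and 1 lower, where 8.66% and 1.07% of all models were called. Without masked TH59-DB 2, 10 of 83 were higher and 1 lower, where 9.58% and 0.932% of all models were, so calls rose over all models too. In library 1, 84 of 88 genes were higher in TH59-DB, against 81.5% of all models, and in library 2 39 of 88 (44.3%), against 29.7%. CPM ranges did not overlap for 31 genes higher and 3 lower, against 25.5% and 15.9% of all models. This comparison shares its TH59-DB libraries with the one above.

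Zfp971 had a log2 fold change over input of 4.26 (SE 1.19, adjusted p = 0.0969), Zfp970 5.35 (SE 1.67, 0.141) and Zfp950 4.27 (SE 1.64, 0.242). The first passed in 10 of 13 alternative settings, the second in 6 and the third in 4. Zfp292, a gene of a large C2H2 protein on chromosome 4, had 106 and 53.7 CPM with TH59-DB, 33.0 and 62.4 with the masked probe, and 18.8 and 21.0 in the input at its model from 34810317 to 34810876. Both captures lay above the input and overlapped each other. Its log2 fold change over input was 1.92 (SE 0.61, adjusted p = 0.146), and it passed in 3 of 13 alternatives. In its span lay 11 models, and in 11 of 11 the mean CPM was higher in TH59-DB than in the input. The same held for the masked probe over input in 11 of 11, and TH59-DB was above the masked probe in 7 of 11. Their sums were 312 and 246 CPM with TH59-DB, 95.9 and 324 with the masked probe, and 77.7 and 140 in the input. Zfp646 had 7 models, 7 of 7 with a higher mean in TH59-DB than in the input, 5 of 7 than with the masked probe, and sums of 138 and 64.1 CPM with TH59-DB, 48.2 and 103 with the masked probe, and 63.3 and 58.5 in the input. Such counts do not single out Zfp292 and Zfp646. All models were higher over input also in Zfp644 (6 of 6), Zfp407 (5 of 5) and Zfp507 (5 of 5). The same held in most genes with 2 or more models, such as Zfp217 and Zfp629 (3 of 3 each) and Zfp169 (2 of 2). The means include TH59-DB 1, the library in which no model had fewer than 5 reads. In Zfp36l2 it was 0 of 2 models. Zfp106 differed too, with 0 of 9 models higher. It had 26.6 and 27.8 CPM in TH59-DB against 34.2 and 57.8 in the input and 33.0 and 61.8 with the masked probe, and its log2 fold change over input was -0.61 (adjusted p = 0.823).

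Zfp791 had the lowest value over input. Its model of 94 bases on chromosome 8 (85111864 to 85111957) had 7.76 and 5.41 CPM with TH59-DB, 11.2 and 7.37 with the masked probe, and 232 and 14.4 in the input. Input 1 stood far above the other 5 libraries. The log2 fold change was -4.50 (SE 1.26, adjusted p = 0.0977), and it was -0.80 without input 1. Zfp622, a gene of ribosome assembly, had 21.1 and 10.4 CPM in TH59-DB and 20.1 and 21.0 in the input (log2 fold change -0.48, adjusted p = 0.894).

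Masked TH59-DB against input gives the background of the control capture. Here 0 of 67 genes were higher and 0 lower (edgeR adjusted p under 0.05), where 0.26% and 0.0% of all models were called. At an unadjusted p under 0.05, 3 were higher (Zfp629, Zfp933 and Zfp41) and 1 lower (Zfp791), against 3.86% and 2.95% of all models. DESeq2 called 1 higher (Zfp629) and 1 lower (Zfp791), against 1.75% and 0.334%. The median was 0.23 over the 67 and -0.26 over all models, and 42 values were positive and 25 negative. CPM ranges did not overlap for 15 genes higher and 7 lower, against 11.1% and 14.5% of all models. Without masked TH59-DB 2 the medians were -2.01 and -1.53, and 9 of 83 genes tested were higher and 11 lower, where 5.69% and 14.0% of all models were called. Zfp292, in both captures above the input, stood here at 1.00 on the log2 scale (edgeR adjusted p = 0.830).

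Zfp629 had 28.4 and 15.7 CPM with the masked probe, 16.1 and 5.79 with TH59-DB, and 0.670 and 3.15 in the input. Both captures lay above the input at this model. The log2 fold change of masked TH59-DB over input was 3.55 (SE 1.03, adjusted p = 0.361), and it passed with DESeq2 (adjusted p = 0.0220) and without masked TH59-DB 2 (1.09e-04), with values up to 1.0 over all alternatives. Zfp629 had 3 models, and the masked mean was above the input in 2 of 3. At the model from 127610758 to 127611206 the log2 fold change was -0.25. Summed over its models, Zfp629 had 29.4 and 24.3 CPM with the masked probe and 4.35 and 9.46 in the input. With TH59-DB the sums were 31.0 and 8.11, which overlapped the input. For Zfp933 the log2 fold change of masked TH59-DB over input was 1.74 (SE 0.63, edgeR adjusted p = 0.557). Zfp41 (4.08, adjusted p = 0.697) had 16.2 and 3.20 CPM with the masked probe. Both lay above its input of 0.670 and 0.350 CPM, which rested on 2 and 1 reads. Zfp335 (4.55, 0.811) rested on masked TH59-DB 1, with 10.1 against 0 CPM in the 2 masked libraries, and was -2.42 without it. In the other direction came Zfp791 (-4.14, adjusted p = 0.377), Zfp62 (-3.26, 0.804), Zfp523 (-2.42, 0.838) and Zfp780b (-2.03, 0.848). Zfp791 was -0.24 without input 1.

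Of the 88 genes 6 had 0 reads in both input libraries. Each had its highest value in TH59-DB 1, the library in which no model had fewer than 5 reads. Zfp367 had 18.3 CPM in TH59-DB 1 and 0.772 in TH59-DB 2, Zfp957 had 10.5 and 1.93, Zfp942 11.1 and 0, and Zfp229 5.54 and 0, all with 0 reads in both masked libraries, and none of these 4 passed the filter. Zfp994, the sixth, had 5.54 CPM in TH59-DB 1 and 0 reads in the other 5 libraries. Zfp160 had 5.54 and 1.16 CPM in TH59-DB and 0 and 4.80 with the masked probe.

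By position, the 88 genes lay on 19 chromosomes, with 16 on chromosome 7 and 12 on chromosome 17. Distance was taken to the distal mark, the end of the outermost gene or model of the chromosome, as true ends were not at hand. Within 5 Mb of it lay 7 genes, of which 6 were tested. Zfp950 was 0.215 Mb from the mark, Zfp971 3.98 Mb and Zfp970 4.54 Mb. Their log2 fold changes over masked TH59-DB of 3.62, 4.92 and 3.80 stood beside -1.18 for Zfp740 at 1.73 Mb, 0.58 for Zfp445 at 1.64 Mb and 0.88 for Zfp386 at 3.97 Mb. The median of the 6 was 2.25, against 0.93 for all 492 tested models in that range. Of the 6, Zfp971 and Zfp970 are neighbours with promoter windows 97.6% identical, so they may not count as separate loci. Zfp950 rests on 18 and 36 TH59-DB reads. From 5 to 20 Mb the median of 13 genes was -0.31, below the 0.31 of all models there. From 20 to 60 Mb it was 0.39 for 16 genes, against 0.23. Farther away it was 0.79 for 32 genes, against 0.26. These differences were not tested. Zfp131, at 0.530 Mb, had 13.9 and 1.16 CPM with TH59-DB, 0 and 0.961 with the masked probe, and 0.670 and 1.40 in the input, and was not tested.

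**Figure D4:**
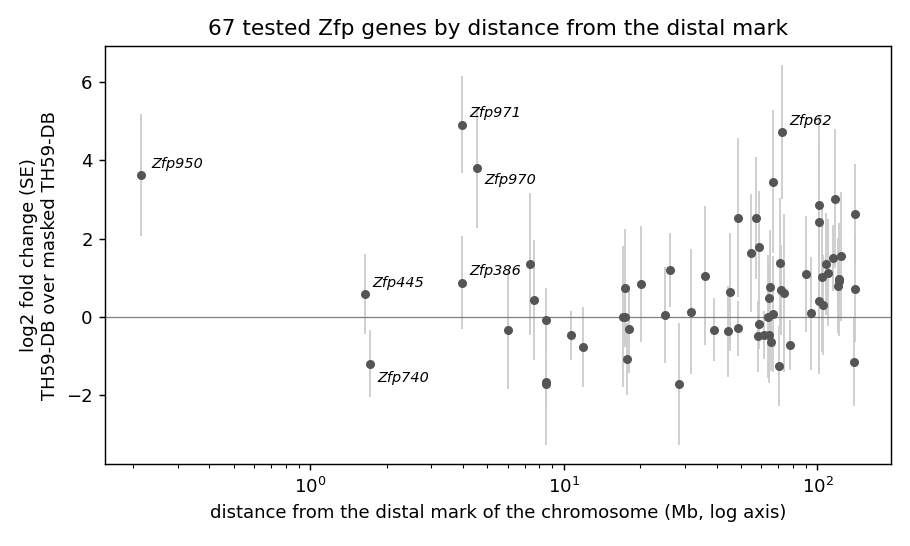
Log2 fold change of TH59-DB over masked TH59-DB with its SE for the 67 tested Zfp genes against the distance from the distal mark of their chromosome (Mb, log axis). Zfp950, Zfp971 and Zfp970 lie within 5 Mb of the mark at 3.62, 4.92 and 3.80, Zfp740 lies there too at -1.18, and Zfp62, at 4.72, lies over 60 Mb away.

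The cofactors of KRAB proteins and related heterochromatin genes had a model in 16 of 26 listed genes, and 15 were tested. None passed against masked TH59-DB (edgeR), where 1.41% and 0.0% of all models were called higher and lower. At an unadjusted p under 0.05, 1 was higher and 0 lower, against 8.26% and 1.69% of all models. DESeq2 called 0, against 4.92% and 0.0186%. The median log2 fold change was 0.34, against 0.30 over all models tested. Trim28, the KRAB corepressor, had 38.3 and 18.9 CPM with TH59-DB, 37.0 and 38.8 with the masked probe, and 49.9 and 76.7 in the input. Setdb1, the methyltransferase it recruits, had 28.3 and 37.9, 25.4 and 33.0, and 27.5 and 58.5 CPM in the same order. In both genes the captures overlapped. Against input 1 of 15 was higher and 0 lower, where 3.58% and 0.0371% of all models were called. It was the chromatin remodeller gene Smarcad1, near 0 in the input and so past the filter through its capture libraries, with 15 and 29.0 CPM with TH59-DB, 3.04 and 5.44 with the masked probe, and 0.335 and 0 in the input (log2 fold change 6.86, SE 1.46, adjusted p = 0.0248). The list's median over input was -0.24, and 5 values were positive and 10 negative. The Zfp genes had 0.85 with 54 positive and 13 negative, and all models tested had 0.03 with 50.9% positive. For the masked probe over input 0 passed (edgeR), where 0.26% and 0.0% of all models were called. At an unadjusted p under 0.05, 1 was higher and 1 lower, against 3.86% and 2.95%. DESeq2 called 0, against 1.75% and 0.334%. The median was -0.54, against -0.26 over all models tested. Zinc finger genes of other families, such as Zbtb, Klf and Zscan, had a model in 40 of 113 genes, and 30 were tested. The lists are not fully separate, as the model of Zscan30 is also that of Zfp397 and counts in both. None of the 30 passed in any comparison (edgeR), and DESeq2 called 0 as well, beside the shares of all models given above for each comparison. At an unadjusted p under 0.05 the count over masked TH59-DB was 1 higher and 0 lower, against 8.26% and 1.69% of all models. Over input it was 0 higher and 1 lower for each capture. The shares of all models there were 8.86% and 5.14% for TH59-DB, and 3.86% and 2.95% for the masked probe. Their medians were 0.41 over masked TH59-DB and 0.16 over input, and -0.19 for masked TH59-DB over input. All models tested had 0.30, 0.03 and -0.26 in the same order. The difference between these lists was not tested.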

How the data were processed

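The deposited files hold whole-number read counts per transcript model and FPKM values made by the authors. The submitters' processing notes list HISAT2, featureCounts, Cufflinks and cutadapt with no version, and build mm10; strand settings are not given in the sources used here. Files of libraries 1 and 2 were joined on chromosome, start and end (7695 models) or on first start and length (264). The FPKM values of the authors served only to recover each library total. Gene spans came from RefSeq GRCm38.p6, and gene strands and promoter windows from its promoter table.

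All 5385 models that passed filterByExpr were fitted together with edgeR 4.0.16 in R 4.3.3 (recovered totals, TMM, 1 group term, robust quasi-likelihood F-tests, 2-sided, Benjamini-Hochberg over all models, threshold 0.05). The biological coefficient of variation was 0.702. The procedure was tested on simulated data for TH59-DB over masked TH59-DB, where it called a minority of the largest changes put in and none of the smaller ones, so a count of 0 does not show that no gene changed. DESeq2 1.42.0, other scalings, filters, memberships and left-out libraries were alternatives. Members, lists and the rule for named genes (the 4 smallest p per direction and comparison, the 8 most abundant, 5 at 0 in input, and a fixed list) were chosen with earlier results of these data known. Zfp213, Zfp407, Zfp507, Zfp644, Zfp646, Zfp719, Zfp808, Zfp994, Zfp131, Zfp386 and Smarcad1 were singled out after their values were seen. So were genes named only for the direction of all their models. The annotation gives no strand for some genes, and promoter sequences of 12 genes were not used here.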

Additional observations from a re-analysis of the deposited data

How the results depend on the processing

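The count of 0 Zfp genes called changed with most settings. So did the share of all models called, given in brackets. For TH59-DB over masked TH59-DB it was 1 (Zfp971) with DESeq2 (4.94%), RLE factors (3.1%), library totals without composition factors (2.88%), library sizes from the model counts (2.82%) or the replicate block (3.55%), and 2 without the filter (2.59%). With 1 library left out it ran from 0 (0.449%, without TH59-DB 2) to 27 (23.9%, without masked TH59-DB 2). For TH59-DB over input it was 5 with DESeq2 (7.3%) and with only the 2 groups compared (10.2%), 3 without composition factors (4.27%) and without the filter (3.92%), 2 with RLE factors (4.68%) and with the replicate block (6.74%), and 1 with model-count library sizes (4.46%). With 1 library left out it was 0 to 11 (1.43% to 10.5%). For masked TH59-DB over input it was 2 with DESeq2 (2.08%), and 1 without composition factors (2.01%), without the filter (1.42%) or with the replicate block (1.97%). With 1 library left out it was 0 to 20 (0.0% to 19.7%). Stricter spans kept the same 88 genes, and same-strand models (10 tested) and names with digits only (64 tested) reuse the same fit, so their counts of 0 say nothing about stability. Medians ran from 0.40 to 5.08, 0.88 to 1.27 and -2.01 to 0.41 with 1 library left out, in the order of the comparisons. In the first of these the medians of all models tested moved along, from 0.26 to 5.10. The log2 difference of summed levels ran from -0.19 to 0.56 between the captures, 0.05 to 0.74 for TH59-DB over input and -0.17 to 0.58 for masked TH59-DB over input. Single genes that reversed with 1 library left out were Zfp740 over the masked probe (-2.38 to 0.18), Zfp335 with the masked probe over input (-2.42 to 7.16), both without masked TH59-DB 1, and Zfp106 over input (-1.53 to 0.15, without TH59-DB 1). Of the values of named genes under alternatives, 234 kept direction and side of the threshold, 51 kept direction and passed, and 3 reversed. The cause was not tested. The labels do not say whether same-numbered libraries were made together. Their deviations from the group means correlated at 0.110, 0.0932 and -0.00208, and whether they share a batch was not tested. Between 0 and 47 Zfp genes had 0 reads per library, and these numbers did not follow the library totals.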

Other observations

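Between the start of Zfp970 and the end of Zfp971 on chromosome 2 (177464742 to 178035859) lay 15 models, 8 of these genes and 7 others. The 7 others summed to 111 and 270 CPM with TH59-DB, 3.55 and 7.69 with the masked probe, and 5.36 and 10.9 in the input, and the 8 to 128 and 353, 14.7 and 33.3, and 8.37 and 21.7 CPM. Both sets had their highest 2 values in TH59-DB. The stretch was singled out after these values were seen.

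Along their genes, 26 of 76 Zfp models with a known gene strand (34.2%) had their centre in the last 25% of the span, where 31.8% of the models of 3099 other protein-coding genes had theirs. In the first 25% lay 14 (18.4%), against 28.6% of the others. The difference was not tested.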
